A study of Mus musculus with 47 samples.

Results

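The livers of mice that received a TiO2 sunscreen before each exposure to ultraviolet radiation (UVR) were compared with those of mice that received a ZnO sunscreen before the same exposure. The comparison rests on 11 of the 47 arrays in the series, 6 from TiO2 + UVR and 5 from ZnO + UVR, with 1 liver per array. All mice were female, hairless SKH:QS animals that entered the study at 8 weeks of age. In TiO2 + UVR the product held TiO2 nanoparticles together with organic UVR filters, octylmethoxycinnamate and butyl methoxydibenzoylmethane. In ZnO + UVR the product held ZnO nanoparticles as its only active ingredient. The contrast is therefore between whole commercial products, and the metal oxides and the organic filters cannot be told apart in it. Both groups were treated 30 times over 36 weeks, with 29 kJ/m2 UVR per treatment, wore Elizabethan collars during treatment, and had the sunscreen washed off afterwards. The corresponding groups without UVR, TiO2-UVR and ZnO-UVR, had 6 arrays each. Organic + UVR (a sunscreen of organic filters alone), Control + UVR (no sunscreen), Organic-UVR and Control-UVR also had 6 arrays each.

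Some features of the animals bear on what these groups can show. Several mice of ZnO + UVR did not reach the end of the study, while all mice of TiO2 + UVR did. The livers of ZnO + UVR thus come from the animals that remained. In each of the groups, some mice that reached the end had tumours, and the sample titles do not mark the livers of these mice. The study's methods place each treatment group in 1 cage, while the sample labels give individual housing. If each group shared a cage, cage and treatment cannot be told apart. The room had a fixed cycle of light and dark, and the hour at which each liver was taken is not given in the sources used here. The study's methods place dissection about a day after the last irradiation, and the cages were irradiated in turn. If the hour of dissection differed between the groups, hour and treatment cannot be told apart.

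The comparison asks which liver transcripts differ between the TiO2 and ZnO products under the same UVR. Of the 62 genes that did, 8 belong to the circadian clock, among them those with the largest change in each direction. The 2 clock lists held 3 and 7 measured genes, of which 2 and 6 were called, against 0.713% of all transcripts. An earlier analysis of TiO2 + UVR against Control-UVR had already named Ciart, Per1, Tef, Npas2 and Nfil3. It used the same TiO2 + UVR arrays, so the clock was chosen with some of these values known. In every liver cell, the activators Bmal1 and Clock (or its relative Npas2) bind E-box sequences and switch on the Per and Cry genes and Ciart, whose products then silence the activators. Another loop joins the nuclear receptors Nr1d1 and Nr1d2, which repress Npas2 and Nfil3 through ROR elements, and the outputs Tef and Hlf, which compete with Nfil3 at D-boxes. Through these factors the liver clock times the transcription of genes for sterol, amino acid, sugar and NAD metabolism.

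The promoters of 4 of the clock genes are shown because they hold the clock motifs searched, and were picked with the motifs and the directions known. Each run is the 250 bases before a RefSeq transcription start (GRCm38.p6), written 5′ to 3′ on the strand of the gene, with E-boxes (CACGTG) and ROR elements (AGGTCA, or TGACCT where it is read on the opposite strand) in capitals. Ciart lies at chr3:95882229-95882478 (minus strand), Tef at chr15:81802423-81802672 (plus), Per1 at chr11:69098699-69098948 (plus) and Nfil3 at chr13:52981040-52981289 (minus).
Ciart: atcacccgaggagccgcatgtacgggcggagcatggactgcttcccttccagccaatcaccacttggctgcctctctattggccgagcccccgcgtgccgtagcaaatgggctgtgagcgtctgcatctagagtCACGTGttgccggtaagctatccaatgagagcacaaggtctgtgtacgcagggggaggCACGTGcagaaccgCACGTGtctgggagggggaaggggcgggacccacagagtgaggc
Tef: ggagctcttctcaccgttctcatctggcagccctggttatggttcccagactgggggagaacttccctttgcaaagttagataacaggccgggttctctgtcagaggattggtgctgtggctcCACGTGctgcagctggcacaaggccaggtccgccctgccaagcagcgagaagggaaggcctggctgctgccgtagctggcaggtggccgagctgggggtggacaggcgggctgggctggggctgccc
Per1: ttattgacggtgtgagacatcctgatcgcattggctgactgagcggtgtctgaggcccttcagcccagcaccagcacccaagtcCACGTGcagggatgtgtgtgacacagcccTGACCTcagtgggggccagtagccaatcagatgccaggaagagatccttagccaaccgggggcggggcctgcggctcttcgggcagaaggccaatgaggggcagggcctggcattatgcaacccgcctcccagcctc
Nfil3: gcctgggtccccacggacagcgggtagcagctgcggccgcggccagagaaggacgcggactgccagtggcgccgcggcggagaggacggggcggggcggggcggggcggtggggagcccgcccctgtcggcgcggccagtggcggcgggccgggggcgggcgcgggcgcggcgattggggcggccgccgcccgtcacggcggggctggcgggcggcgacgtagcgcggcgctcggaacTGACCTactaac
Ciart, Tef and Per1, all higher in TiO2 + UVR, hold 3, 1 and 1 E-boxes in these bases, and Nfil3, which was lower, holds none and has 1 ROR element. Per1 also has 1 ROR element in its bases. The motifs did not divide the clock genes by direction: Nr1d2, which was higher, has a ROR element and no E-box in its window, and neither motif is in those of Hlf (higher) and Npas2 (lower). The promoter table holds windows of 300 bases, from 250 before each start to just past it, for 7 of the 8 called clock genes, Per2 being the other. On either strand, an E-box occurs in a window of 3 of these genes (Ciart, Tef and Per1) and a ROR element in a window of 3 (Nfil3, Nr1d2 and Per1). Neither D-box form searched (TTATGTAA and TTACGTAA) was found in them. Among all 32851 windows of this length, 7.15% hold the E-box, 16.3% the ROR element, and 0.938% and 0.119% the D-box forms TTATGTAA and TTACGTAA. For the ROR element only the letters AGGTCA were searched, and the bases beside them were not checked. A match of letters is a description of the window and says nothing of binding in these livers.

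Of 9815 transcripts tested, 70 differed between TiO2 + UVR and ZnO + UVR, 21 higher and 49 lower in TiO2 + UVR (limma, Benjamini-Hochberg adjusted p under 0.1). These are 0.713% of all transcripts, 0.214% higher and 0.499% lower. Of these, 63 carry 1 gene symbol and stand for 62 genes, 17 higher and 45 lower, and 7 carry several symbols or none. Of the 70, 26 differed by 1 or more on the log2 scale, 10 higher and 16 lower. All values are robust multi-array average (RMA) levels on the log2 scale, and differences are TiO2 + UVR minus ZnO + UVR, fitted with a term for the labelled replicate number. Before adjustment, 770 transcripts had p under 0.05.

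The arrays of the groups did not overlap for 52 of the 70 called transcripts, with all TiO2 + UVR values above for 14 and all below for 38. Over all transcripts, TiO2 + UVR lay entirely above ZnO + UVR for 0.479% and entirely below for 0.754%. The called transcripts were mostly bright, with a median level of 7.02 against 5.24 for all transcripts, and 3 of the 70 lay below that overall median. Those 3 were all higher in TiO2 + UVR. The count rested in part on single arrays. It was 38 without ZnO + UVR replicate 1, 46 without TiO2 + UVR replicate 4 and 46 without TiO2 + UVR replicate 6, against 127 without TiO2 + UVR replicate 1. With the slope of each array as a covariate 188 transcripts were called, 106 higher and 82 lower, and all 70 were among them. Organic-UVR replicate 1, an array of another group with the lowest slope of the 47 (0.772, the next being 0.895), belongs to the same fit, and without it 111 transcripts were called, the 70 among them.

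**Figure D1:**
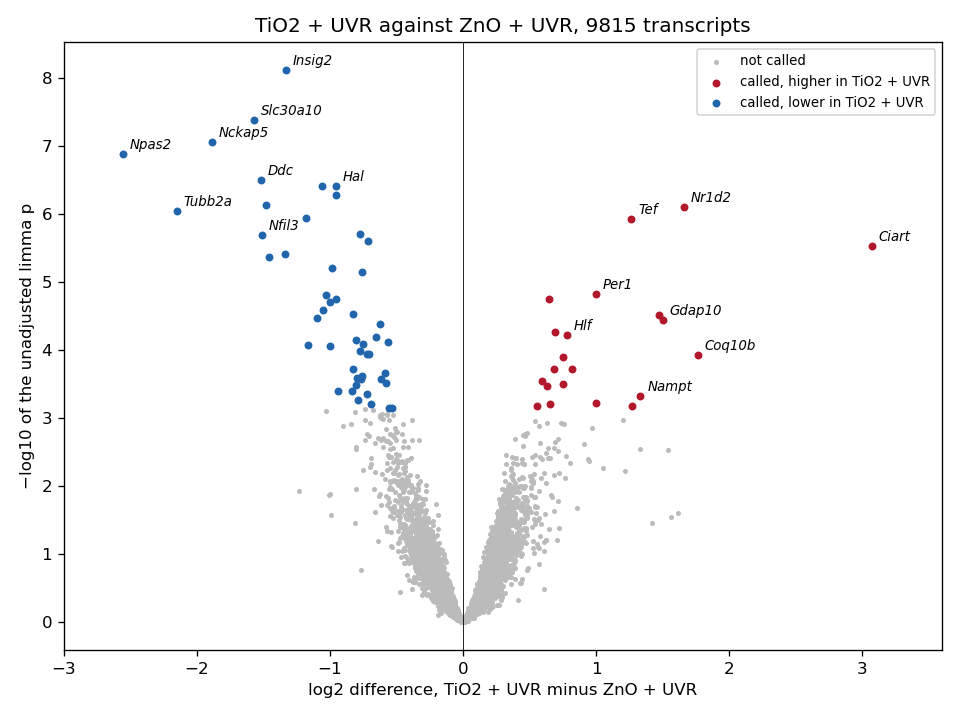
Each of the 9815 transcripts is a point, with its log2 difference (TiO2 + UVR minus ZnO + UVR) on the x axis and the −log10 of its unadjusted limma p on the y axis. Red points are the 21 called higher and blue points the 49 called lower; Ciart stands farthest to the right (3.08) and Npas2 farthest to the left (-2.55).

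Npas2, the activator that stands in for Clock, showed the deepest decrease of any called transcript. Its level was lowest at 3.86, median 4.07 and highest 4.46 in TiO2 + UVR, against 6.37, 6.48, 6.78, 6.93 and 6.62 in the 5 livers of ZnO + UVR. All 6 livers of TiO2 + UVR lay far below the lowest of ZnO + UVR. The fitted log2 difference was -2.55 (SE 0.40, adjusted p = 0.000326), or 5.88-fold lower, with a 95% interval of -3.37 to -1.74. Nfil3, a repressor at D-boxes, ranged from 7.01 to 8.08 (median 7.33) in TiO2 + UVR, against 8.54, 8.85, 8.54, 9.34 and 9.33 in ZnO + UVR. The groups did not overlap, and Nfil3 fell by 1.51 (SE 0.27, adjusted p = 0.00134). Cry1, a repressor of Bmal1 and Clock that peaks late in the cycle, averaged 6.70 in TiO2 + UVR and 7.30 in ZnO + UVR, a difference of -0.64 (SE 0.33, adjusted p = 0.684) that did not pass the test. Of the activating arm list, whose measured members are these 3 genes, 2 were lower, 0 were higher, and the median difference was -1.51, against 0.03 over 6889 genes. Nfil3 and Cry1 are repressors, so the name of the list describes Npas2 alone.

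The transcripts of the opposite loop were higher in TiO2 + UVR. Of 7 measured genes of the repressing and output arm, 6 rose and none fell, with a median difference of 1.00 and a range of 0.61 to 3.08. Among 6889 genes, each by its brightest transcript, 16 were called higher and 45 lower.

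Ciart, which encodes a repressor of Bmal1 and Clock, had the largest increase of any called transcript. It measured from 7.34 to 9.13 (median 8.26) in TiO2 + UVR, against 4.31, 5.01, 4.94, 5.79 and 5.80 in ZnO + UVR. The groups were well apart, with a difference of 3.08 (SE 0.57, adjusted p = 0.00172), or 8.43-fold higher, and a 95% interval of 1.92 to 4.23. RefSeq places Ciart on chromosome 3, but 19 of the 20 nearest named probesets in number belong to chromosome 10, so whether its probes also match another locus was not tested. The promoter shown for Ciart is that of the gene on chromosome 3.

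Nr1d2, the repressor known as REV-ERB beta, spanned 9.13 to 9.59 (median 9.25) in TiO2 + UVR, against 7.88, 7.89, 7.15, 7.50 and 7.78 in ZnO + UVR. The livers of TiO2 + UVR lay close together and above all of ZnO + UVR, and the difference was 1.66 (SE 0.29, adjusted p = 0.000778). Its partner Nr1d1 averaged 8.72 in TiO2 + UVR and 8.17 in ZnO + UVR, and the difference of 0.61 (SE 0.60, adjusted p = 0.901) did not pass the test. Nr1d1 was the only measured member of this arm that was not called.

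The period genes Per1 and Per2 encode the central repressors of the cycle. Per1 ranged from 5.88 to 6.42 (median 6.17) in TiO2 + UVR, against 5.15, 5.37, 5.21, 5.08 and 5.10 in ZnO + UVR, with no overlap. Its difference was 1.00 (SE 0.20, adjusted p = 0.00664). Per2 ranged from 5.43 to 6.38 (median 6.03) in TiO2 + UVR, against 4.98, 5.40, 5.55, 5.33 and 5.12 in ZnO + UVR. The groups overlapped in 1 liver of TiO2 + UVR, and the difference was 0.75 (SE 0.18, adjusted p = 0.0276). The call of Per2 was lost without ZnO + UVR replicate 1, ZnO + UVR replicate 5 or TiO2 + UVR replicate 6, and in a fit of the 11 arrays alone.

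Tef and Hlf encode related activators that bind D-boxes in the promoters of liver enzymes. Tef lay between 6.59 and 7.33 (median 7.07) in TiO2 + UVR, against 5.93, 5.71, 5.64, 5.98 and 5.72 in ZnO + UVR. Hlf lay between 7.44 and 7.89 (median 7.61) in TiO2 + UVR, against 6.77, 6.95, 6.81, 6.92 and 6.92 in ZnO + UVR. In both genes every liver of TiO2 + UVR was above every liver of ZnO + UVR. The differences were 1.27 (SE 0.22, adjusted p = 0.000902) for Tef and 0.78 (SE 0.18, adjusted p = 0.0173) for Hlf.

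**Figure D2:**
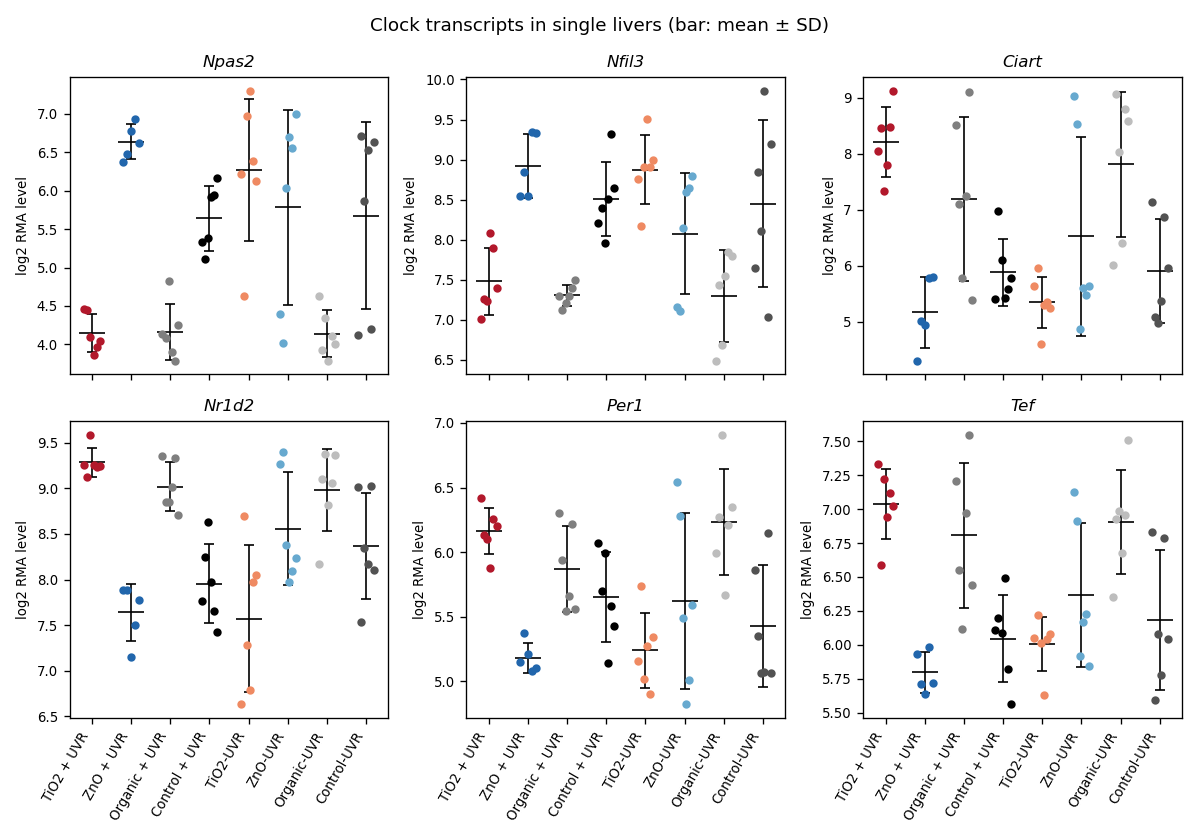
Log2 RMA levels (y axes) of 6 clock transcripts in single livers of the 8 groups (x axes), with the mean ± SD of each group. TiO2 + UVR and ZnO + UVR do not overlap in any of the 6 panels, while ZnO-UVR and Control-UVR hold livers at both ends, such as Npas2 at 4.02 and 7.00 in ZnO-UVR.

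Coq10b, which encodes a coenzyme Q-binding protein of mitochondria, spanned 7.95 to 9.34 (median 8.52) in TiO2 + UVR, against 6.89, 6.22, 7.18, 6.58 and 7.58 in ZnO + UVR. It rose by 1.76 (SE 0.41, adjusted p = 0.0259), or 3.4-fold, without overlap. The call of Coq10b was lost without ZnO + UVR replicate 1 or 2, or TiO2 + UVR replicate 4 or 6. Nampt, the rate-limiting enzyme of NAD salvage and a known clock target, spanned 8.73 to 9.74 (median 9.24) in TiO2 + UVR, against 7.48, 7.66, 8.31, 7.98 and 8.20 in ZnO + UVR. The groups did not overlap, and the difference of 1.33 (SE 0.35, adjusted p = 0.0738) lay close to the threshold. It was lost in 8 of the alternatives, among them a threshold of 0.05 and leaving out any of ZnO + UVR replicates 1, 2, 4 and 5 or TiO2 + UVR replicates 4 and 6.

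Gdap10 ranged from 5.82 to 7.25 (median 6.56) in TiO2 + UVR, against 5.31, 4.94, 5.36, 4.70 and 4.91 in ZnO + UVR, without overlap (1.5, SE 0.32, adjusted p = 0.0113). It lies inside the span of Nampt in the RefSeq annotation of chromosome 12, and whether they share signal was not tested. Ppp1r3g, a subunit that directs a phosphatase to glycogen, rose by 0.82 (SE 0.20, adjusted p = 0.039). The call of Ppp1r3g was lost without ZnO + UVR replicate 1 or 2 and without the replicate number in the fit. It was the 1 called member of 11 glucose output and glycogen genes (median -0.11), against 0.713% of all transcripts. Among the others, the glycogen branching enzyme gene Gbe1 differed by 0.44 and the glucose-6-phosphatase gene G6pc by -1.24, neither past the threshold. Ncam2, a neural adhesion molecule, differed by 1.00 (adjusted p = 0.0908) and Rnf145, a ubiquitin ligase of the endoplasmic reticulum, by 0.75 (adjusted p = 0.0551). The call was lost in 14 alternatives for Ncam2 and in 10 for Rnf145. Bnip3, a receptor for the removal of mitochondria, spanned 11.06 to 11.33 in TiO2 + UVR, against 10.44 to 10.63 in ZnO + UVR, a difference of 0.69 (SE 0.15, adjusted p = 0.0162). As with Ciart, the number of its probeset falls among those of another chromosome (14, for 20 of 20 neighbours) than that of the gene (7). Bnip3 was named after its values were seen, because of this limit.

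Among the decreases, the smallest p-value of all belonged to Insig2, which encodes a protein of the endoplasmic reticulum that holds back sterol synthesis. Insig2 measured from 8.71 to 9.68 (median 9.24) in TiO2 + UVR, against 10.24, 10.50, 10.44, 10.69 and 10.45 in ZnO + UVR. The groups did not overlap, and the difference was -1.33 (SE 0.18, adjusted p = 7.48e-05), or 2.51-fold lower. Insig2 was the 1 called member among 10 measured genes of sterol synthesis and uptake, against 0.713% of all transcripts. The other 9 lay between -0.25 and 0.33, with Srebf2, the transcription factor of sterol synthesis, at -0.25 (adjusted p = 0.803), and the median of the list was -0.04.

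Slc30a10, a manganese exporter of the zinc transporter family, ranged from 6.31 to 7.22 (median 6.97) in TiO2 + UVR, against 8.27, 8.52, 8.33, 8.73 and 8.28 in ZnO + UVR. It fell by 1.57 (SE 0.23, adjusted p = 0.000201), or 2.97-fold, and the groups did not overlap. Slc30a10 was alone among 11 measured genes of zinc and manganese transport and storage in passing the test, against 0.713% of all transcripts. The full list holds 27 genes, and nothing can be said here of those that were not measured. The median of the list was -0.04. Slc39a14, an importer of zinc and manganese, had 0.37 (adjusted p = 0.756), the highest value of the list, and Slc30a1, the zinc exporter of the plasma membrane, had 0.18 (adjusted p = 0.841).

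The tubulin genes Tubb2a and Tuba4a encode a beta and an alpha subunit of microtubules. Tubb2a lay between 6.19 and 8.08 (median 7.11) in TiO2 + UVR, against 8.54, 8.99, 9.72, 9.33 and 9.70 in ZnO + UVR, with a difference of -2.15 (SE 0.37, adjusted p = 0.000791), or 4.44-fold lower. Tuba4a lay between 8.63 and 9.91 (median 9.61) in TiO2 + UVR, against 9.94, 10.42, 10.21, 10.74 and 10.60 in ZnO + UVR. The groups of Tuba4a nearly touched, at 9.91 and 9.94, and its difference was -1.0 (SE 0.23, adjusted p = 0.0214). The call of Tuba4a was lost without TiO2 + UVR replicate 4 and in a fit of the 11 arrays alone. The other 7 of 9 measured tubulin and stathmin genes lay between -0.36 and 0.06, and the median of the list was -0.23. Of all transcripts, 0.713% were called. Tubb2b, a close relative of Tubb2a, had -0.07 (adjusted p = 0.969).

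Of 19 measured genes of amino acid breakdown, 3 fell in TiO2 + UVR and none rose, against 0.713% of all transcripts called. All 19 differences were negative, from -1.52 to nearly 0, with a median of -0.26. Negative differences were also the more frequent sign among bright genes, at 60.3% of the 890 genes with a mean level of 8 or more (median -0.06), against 43.9% of all 6889. Ddc, the decarboxylase of aromatic amino acids, ranged from 6.54 to 8.19 (median 7.26) in TiO2 + UVR, against 8.33, 8.43, 8.25, 9.31 and 9.24 in ZnO + UVR. It fell by 1.52 (SE 0.25, adjusted p = 0.000547) and the groups did not overlap. Hal, the first enzyme of histidine breakdown, ranged from 9.19 to 10.15 (median 9.68) in TiO2 + UVR, against 10.44, 10.79, 10.57, 10.84 and 10.36 in ZnO + UVR, and fell by 0.96 (SE 0.16, adjusted p = 0.000547). Bhmt, which remakes methionine from homocysteine, ranged from 7.70 to 8.62 (median 8.05) in TiO2 + UVR, against 8.85, 8.86, 8.95, 8.53 and 8.86 in ZnO + UVR. It fell by 0.76 (SE 0.15, adjusted p = 0.00332), although 1 liver of TiO2 + UVR (8.62) lay above the lowest of ZnO + UVR (8.53). Of the 16 others, Agxt, the alanine-glyoxylate aminotransferase gene (-0.80), and Amdhd1, of histidine breakdown (-0.63), were the lowest and did not pass the test (adjusted p = 0.196 and 0.117). Bhmt, Agxt and Amdhd1, like Cry1, Nr1d1, G6pc, Slc30a1 and Tubb2b elsewhere, were named after their values were seen.

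Protein synthesis and folding lists held a single called gene each, against 0.713% of all transcripts. Tars, the threonyl-tRNA synthetase, spanned 8.31 to 9.0 (median 8.70) in TiO2 + UVR, against 9.28, 9.85, 10.23, 9.85 and 9.97 in ZnO + UVR, and fell by 1.18 (SE 0.21, adjusted p = 0.000902). All 7 measured tRNA synthetase genes had negative differences, from -1.18 to -0.24 with a median of -0.35, and Tars was the 1 that passed the test. The median level was 8.41 in this list and 9.17 in the proteasome list. Among all genes with a mean level of 8 or more, 60.3% had negative differences. Mars1, the methionyl enzyme, had -0.37 (adjusted p = 0.58). Of 20 proteasome genes, Psmd11, a subunit of the lid, fell by 0.58 (adjusted p = 0.0547), 2 had positive differences, and the median was -0.24. Of 22 unfolded protein response genes, the co-chaperone gene Dnajb11 fell by 0.72 (adjusted p = 0.071), 4 had positive differences, and the median was -0.16. The calls of Psmd11 and Dnajb11 were lost in 8 and 12 of the alternatives, while that of Tars was kept in each of those run.

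Hormone signalling genes moved both ways. Stat5b, which carries the growth hormone signal, ranged from 5.94 to 6.43 (median 6.16) in TiO2 + UVR, against 6.90, 7.09, 6.62, 7.09 and 6.97 in ZnO + UVR, and fell by 0.77 (SE 0.14, adjusted p = 0.00134). Avpr1a, the vasopressin receptor of hepatocytes, ranged from 8.03 to 9.25 (median 8.84) in TiO2 + UVR, against 9.44, 9.81, 9.87, 9.85 and 9.59 in ZnO + UVR, and fell by 0.98 (SE 0.19, adjusted p = 0.00299). Neither gene overlapped between the groups. With Per1, which also answers to glucocorticoids and is counted among the clock genes, 3 of the 16 measured hormone receptor and target genes were called. The share over all transcripts was 0.713%, and the median of the list was 0.03. Socs2, a target of Stat5, had 1.22 (adjusted p = 0.294), named after its value was seen.

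Nckap5 was the third lowest called transcript, between 4.77 and 5.68 (median 5.08) in TiO2 + UVR, against 6.86, 6.83, 7.20, 7.41 and 6.73 in ZnO + UVR. It fell by 1.89 (SE 0.29, adjusted p = 0.00028) with no overlap between the groups. Asap2, an activator of Arf GTPases, fell by 1.48 (SE 0.25), Lgalsl, a galectin-like gene, by 1.45 (SE 0.28), and Ypel2 by 1.34 (SE 0.25), each with all TiO2 + UVR livers below all ZnO + UVR livers and adjusted p-values from 0.000778 to 0.0022. The levels of Asap2 ran from 5.25 to 6.22 (median 5.92) in TiO2 + UVR, against 7.13, 7.60, 7.04, 7.53 and 7.01 in ZnO + UVR. Those of Lgalsl ran from 5.85 to 6.86 in TiO2 + UVR, against 7.77 to 8.23 in ZnO + UVR. Leap2, a liver peptide that blocks the ghrelin receptor, fell by 1.16 (SE 0.27, adjusted p = 0.0214), with overlap between 5.50 to 7.68 in TiO2 + UVR and 6.55 to 8.93 in ZnO + UVR. In Leap2 the livers with the highest levels were replicates 4 and 5 in both groups. The call of Leap2 was lost without ZnO + UVR replicate 5 and without the replicate number in the fit.

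Outside these genes, most lists held no called member. Of 32 pathway lists, 11 held at least 1. None was called among 29 DNA repair genes (median -0.02), 16 p53 target and DNA damage signalling genes (-0.03), 22 interferon response genes (0.01), 17 NF-kB target and chemokine genes (0.07), 15 NRF2 antioxidant genes (-0.09), 24 xenobiotic oxidation genes (0.03) or 16 immediate early genes (0.04). The median over all genes was 0.03. Since 0.713% of all transcripts were called, a list of this size would often hold no call. Many listed genes were not measured, with 29 of 72 measured for DNA repair, 16 of 44 for p53 and 22 of 58 for interferon. For NRF2 it was 15 of 35, and for xenobiotic oxidation 24 of 69. The lowest p-values in these lists belonged to Tnfaip2 (-0.84, adjusted p = 0.127), Dhx58 (-0.57, adjusted p = 0.233), Fmo2 (0.95, adjusted p = 0.247), Parp1 (-0.51, adjusted p = 0.288), Btg1 (-0.45, adjusted p = 0.377), Pim3 (0.35, adjusted p = 0.403) and Sqstm1 (-0.50, adjusted p = 0.521). The 14 measured PPAR alpha and fatty acid oxidation genes had a median of 0.21 and none was called. Eci3, an enoyl-CoA isomerase of this list, had -1.03 (SE 0.28, adjusted p = 0.102) and came closest, with 5.85 to 6.54 (median 6.30) in TiO2 + UVR, against 7.66, 7.56, 6.43, 6.72 and 7.52 in ZnO + UVR. The groups of Eci3 overlapped through 1 liver of ZnO + UVR. The 95% interval of a typical transcript reached 0.31 to either side of its difference (median, log2), and the number of arrays limits how small a difference could be detected.

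**Figure D3:**
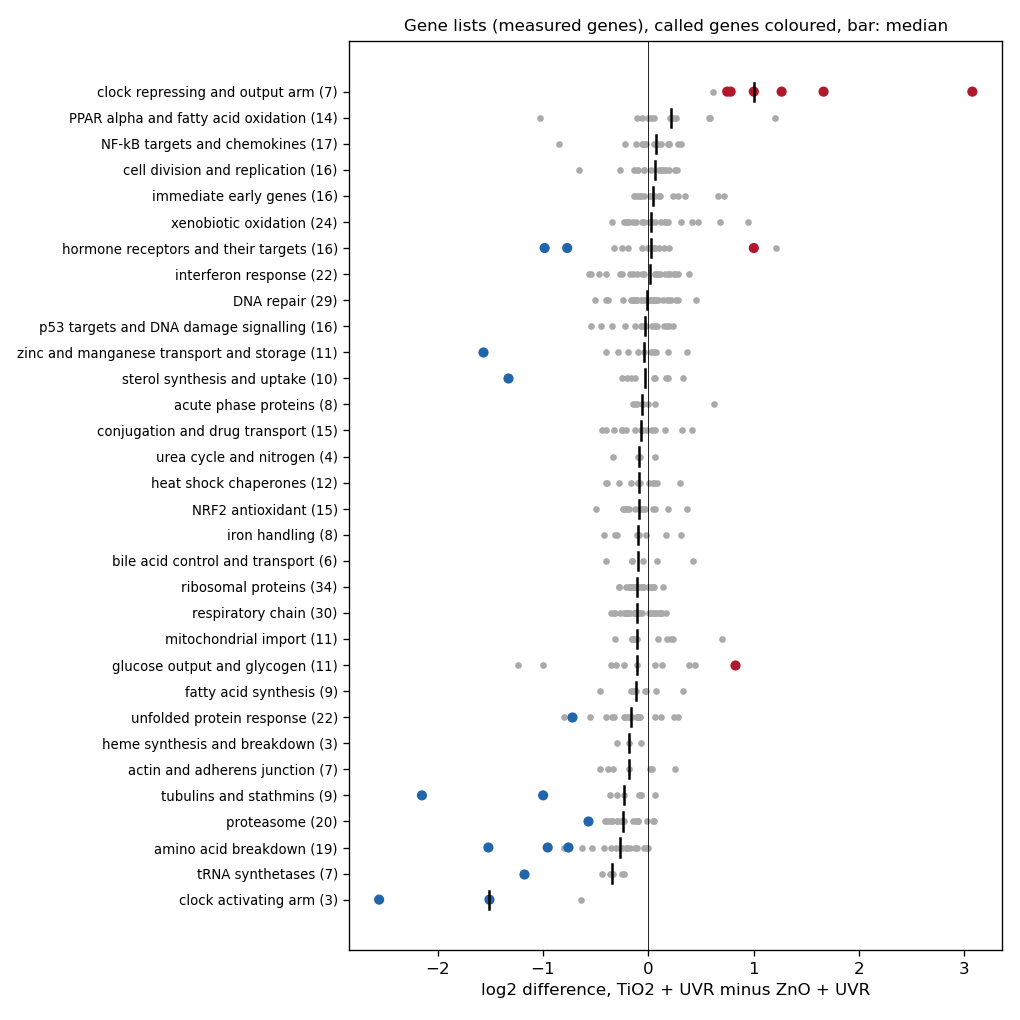
The log2 difference (TiO2 + UVR minus ZnO + UVR, x axis) of every measured gene in 32 pathway lists (rows, with the number of measured genes), called genes in red (higher) or blue (lower) and the median as a black bar. The clock's repressing and output genes have the highest median, 1.00, and the list with Npas2, Nfil3 and Cry1 the lowest, -1.51.

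The livers of both groups carried the markers of hepatocytes. The 22 measured hepatocyte markers had a median level of 11.98 and none was called. Their mean per array ran from 11.38 to 11.59 in TiO2 + UVR, against 11.49 to 11.71 in ZnO + UVR, and 21 of 22 had a negative difference, with a median of -0.09. The 11 markers of sinusoidal and vascular endothelium also had negative differences throughout (median -0.10), with array means of 5.81 to 6.15 in TiO2 + UVR and 6.08 to 6.28 in ZnO + UVR. Of 11 T and NK cell markers 10 had positive differences (median 0.19), with array means of 4.77 to 5.13 in TiO2 + UVR and 4.76 to 4.92 in ZnO + UVR. These 11 were mostly dim, with a median level of 4.54 and 7 of them below the median of all transcripts. Negative differences made up 43.9% of all 6889 genes and 60.3% of the 890 with a mean level of 8 or more. No marker of any of 12 cell type lists was called, and their part in the results was not tested. In whole tissue, fewer cells of a type and less RNA per cell cannot be told apart.

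Across transcripts the difference fell with brightness (r = -0.261 with the mean level over all 9815 transcripts, which share the same arrays). The slope of an array is that of its values on the mean of all 47. It averaged 0.996 in TiO2 + UVR and 1.019 in ZnO + UVR, with ranges of 0.962 to 1.023 in TiO2 + UVR and 0.989 to 1.046 in ZnO + UVR, and the difference of -0.0232 had p = 0.121 in an exact two-sided permutation test over all 462 splits of the 11 arrays (the smallest p these allow is 0.00433). All 70 calls were made again with this slope as a covariate.

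The groups outside the contrast place the called transcripts on a wider scale. Among those with UVR, Control + UVR had Npas2 at 5.64 ± 0.42 (SD, n = 6) and Organic + UVR at 4.16 ± 0.36 (SD, n = 6). On the plain difference of group means, Npas2 was -1.49 in TiO2 + UVR and 0.99 in ZnO + UVR relative to Control + UVR. Control + UVR thus lay between the product groups for Npas2, nearer to ZnO + UVR. For Tubb2a it also lay between them and nearer to ZnO + UVR, with differences of -1.80 in TiO2 + UVR and 0.31 in ZnO + UVR. Ciart measured 5.88 ± 0.60 (SD, n = 6) in Control + UVR, and its differences from that group were 2.33 in TiO2 + UVR and -0.71 in ZnO + UVR. For Slc30a10 they were -1.37 in TiO2 + UVR and 0.18 in ZnO + UVR, and for Insig2 -1.03 in TiO2 + UVR and 0.26 in ZnO + UVR. The pairs of differences share the Control + UVR arrays and were not tested.

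By the distance between group means, Control + UVR was nearer to ZnO + UVR than to TiO2 + UVR for 20 of the 21 transcripts called higher and 40 of the 49 called lower, against 48.9% of all transcripts. Organic + UVR was nearer to TiO2 + UVR for 12 of the 21 called higher and 48 of the 49 called lower, against 60.9% of all transcripts. Ciart varied widely across the livers of Organic + UVR, at 8.52, 7.10, 5.78, 7.25, 9.11 and 5.40, while Nr1d2 had 9.02 ± 0.27 (SD, n = 6) and Npas2 stayed between 3.79 and 4.82.

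Without UVR, the same products gave no called transcript. In TiO2-UVR against ZnO-UVR, 0 of 9815 transcripts passed the threshold in limma (0%), and 364 had an unadjusted p under 0.05. The smallest p belonged to Eci3, which had 7.42 ± 0.45 (SD, n = 6) in TiO2-UVR and 6.13 ± 0.81 (SD, n = 6) in ZnO-UVR, a difference of 1.29 (SE 0.27, adjusted p = 0.194). With array weights or the array slope as a covariate 1 transcript was called.

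The transcripts called with UVR mostly had the other sign without it. Of the 21 higher in TiO2 + UVR, 19 were lower in TiO2-UVR than in ZnO-UVR, with a median of -0.30, and of the 49 lower in TiO2 + UVR, 44 were higher in TiO2-UVR, with a median of 0.20. Opposite signs thus held for 63 of 70, against 46.8% of all transcripts, and these 12 arrays entered the choice of the 70 only through the shared error and the replicate term of the fit. Leaving out each of the 12 in turn, between 57 and 66 of the 70 had the opposite sign. ZnO-UVR replicates 1 and 2 were both low in Npas2 and high in Ciart, and no setting left out both. Whether the opposite signs rest on these livers was therefore not tested. The 70 transcripts share the same arrays and are not separate observations. None of these differences without UVR passed the test on its own.

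The spread in ZnO-UVR was wide and came from single livers. Its replicates 1 and 2 had Npas2 at 4.39 and 4.02, and the other 4 had 6.04, 6.70, 6.56 and 7.00. The same livers had Ciart at 9.04 and 8.53, against 4.87, 5.60, 5.48 and 5.64 in the other 4, and Tubb2a at 5.76 and 6.67, against 8.72, 8.97, 9.30 and 9.06. In TiO2-UVR, Ciart stayed between 4.60 and 5.97, and Npas2 was 6.22, 4.63, 6.97, 7.30, 6.39 and 6.12. Control-UVR also held livers of both kinds, with Npas2 at 4.12 and 4.20 in replicates 1 and 5 and from 5.87 to 6.71 in the rest. Organic-UVR was low in Npas2 throughout, from 3.79 to 4.63. Npas2 levels near those of TiO2 + UVR and near those of ZnO + UVR were thus both present in ZnO-UVR and in Control-UVR.

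**Figure D4:**
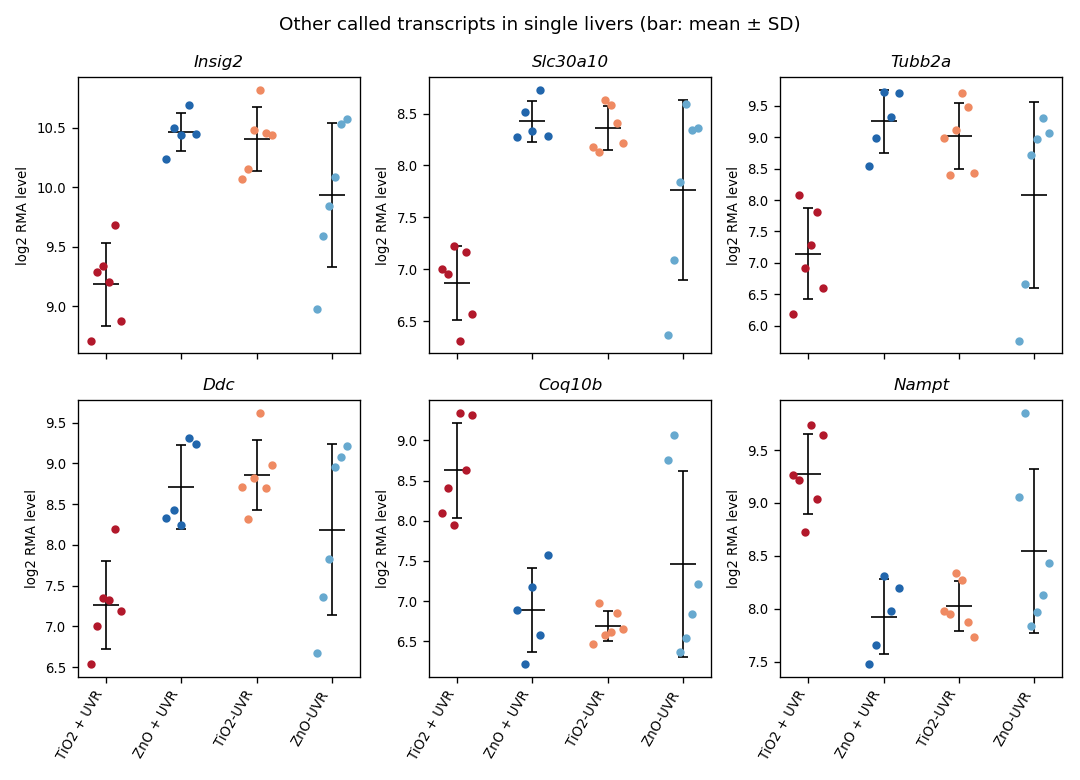
Log2 RMA levels (y axes) of 6 called transcripts outside the core clock in single livers of TiO2 + UVR, ZnO + UVR, TiO2-UVR and ZnO-UVR (x axes), with the mean ± SD of each group. With UVR the products do not overlap in any panel, while ZnO-UVR spreads over most of the range, as in Tubb2a from 5.76 to 9.30.

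The product difference with UVR departed from that without UVR for 69 transcripts (interaction term, adjusted p under 0.1), which is 0.703% of those tested, 27 with a positive and 42 with a negative interaction. With the array slope as a covariate there were 204, 103 positive and 101 negative. For Nr1d2 the difference was 1.66 with UVR and -0.99 without, an interaction of 2.65 (SE 0.40, adjusted p = 0.000135). For Slc30a10 it was -1.57 with UVR and 0.59 without, an interaction of -2.16 (SE 0.32, adjusted p = 0.000135). Insig2 had -1.33 with UVR and 0.47 without (interaction -1.80, SE 0.25, adjusted p = 0.00011). Eci3, called in neither contrast alone, had -1.03 with UVR and 1.29 without (interaction -2.32, SE 0.39, adjusted p = 0.000681). The interaction uses the same arrays as the contrast with UVR, so its calls are not separate evidence for those transcripts. Without ZnO-UVR replicate 2 the interaction was called for 39 transcripts, and without ZnO + UVR replicate 1 for 42.

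**Figure D5:**
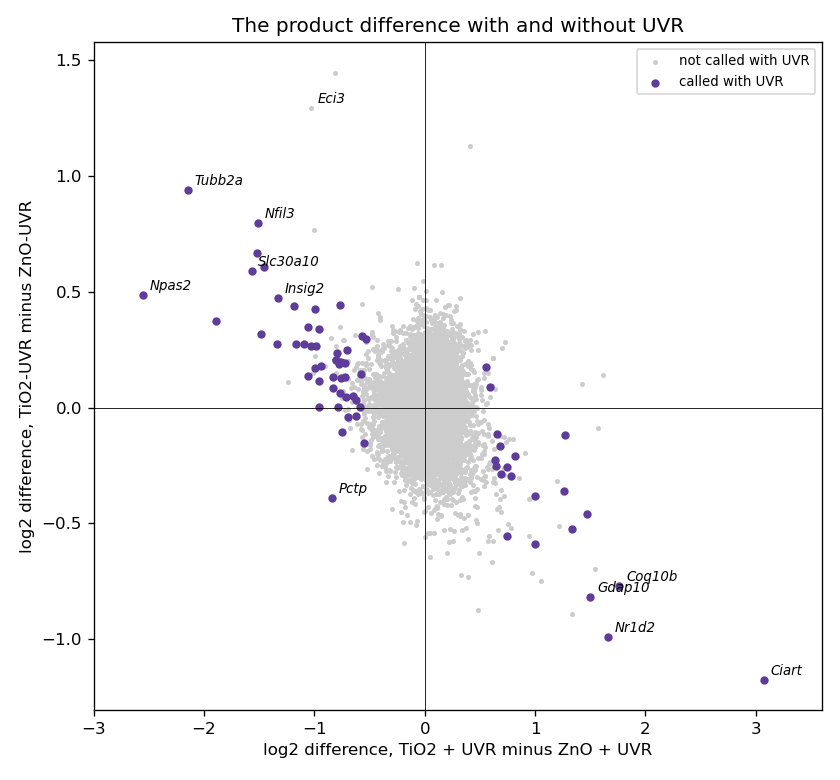
The product difference with UVR (TiO2 + UVR minus ZnO + UVR, x axis) against that without UVR (TiO2-UVR minus ZnO-UVR, y axis), both on the log2 scale, for 9815 transcripts. Of the 70 transcripts called with UVR (purple), 63 lie in the upper left or lower right corner, where the signs are opposite.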

How the data were processed

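RNA from 47 mouse livers, 1 array per mouse, was hybridised to Affymetrix Mouse Gene 1.0 ST arrays. The authors summarised the arrays by RMA and deposited log2 values; the version is not given in the sources used here. The study describes batches of arrays and the removal of batch effects, and whether the deposited values had that step is not stated. The labels give a replicate number but do not call it a batch.

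Of 16383 probesets, the 9815 numbered 10344614 or above were tested and 6568 were left out, so that 97.8% of tested transcripts with a known chromosome lie on chromosomes 1 and 10 to 16. Of the 9815, 7450 carry 1 gene symbol (7421 matched to RefSeq, GRCm38.p6), 511 several and 1854 none. A linear model with 8 groups and the replicate number (1 to 6) was fitted to all 47 arrays with limma 3.58.1 in R 4.3.3 (34 residual degrees of freedom), and p-values were adjusted over 9815 transcripts (Benjamini-Hochberg), called under 0.1. The fit was tested on simulated data. Fitted differences take account of the replicate number and so depart slightly from differences of group means. The labels do not state that livers of a group were processed independently, beyond being separate mice.

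Named genes are the 12 largest called increases and 12 largest called decreases with 1 symbol. They also include the 2 lowest p-values of each list with a call, or otherwise the lowest, and 10 genes of an earlier analysis. That analysis compared TiO2 + UVR with Control-UVR and so shares the TiO2 + UVR arrays. Members, lists and tests were chosen with earlier results of these data known. Each gene of a list is represented by its brightest transcript. Alternatives left out the replicate number, single arrays or dim transcripts, or changed the weights, normalization, variance prior, threshold, covariate or the groups in the fit. Array intensity sets no counting interval, and the number of arrays limits the precision.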

Additional observations from a re-analysis of the deposited data

Results flagged for a closer look

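Single arrays stood apart from the rest of their group in 10 of 138 groups of 69 named genes by Dixon's test, which chance flags in about 1 in 20 groups. In TiO2 + UVR these were Nr1d2 in replicate 3 (9.59, nearest 9.26), Lgalsl in replicate 6 (5.85, nearest 6.62), Pdia6 in replicate 6 (7.93, nearest 8.37), Sox9 in replicate 4 (5.26, nearest 5.72), Psmc5 in replicate 5 (9.72, nearest 9.34) and Slamf7 in replicate 2 (5.78, nearest 4.57). In ZnO + UVR they were Pdia6 in replicate 1 (8.54, nearest 8.94), Mars1 in replicate 4 (7.31, nearest 6.92), Lum in replicate 3 (5.35, nearest 5.74) and Cd68 in replicate 3 (7.56, nearest 7.14). All are log2 levels.

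The product difference with UVR (TiO2 + UVR minus ZnO + UVR) departed from that without UVR (TiO2-UVR minus ZnO-UVR) for 69 transcripts by the interaction term of limma (adjusted p under 0.1). Among the clock genes the interaction was 4.25 for Ciart, 2.65 for Nr1d2, 1.63 for Tef, 1.38 for Per1, 1.08 for Hlf and 1.01 for Per2, and it was -3.04 for Npas2 and -2.31 for Nfil3. Other positive interactions were 2.53 for Coq10b, 2.32 for Gdap10, 1.86 for Nampt, 1.59 for Ncam2, 1.30 for Rnf145, 1.15 for Tomm40l and 1.03 for Ppp1r3g. Negative ones were -3.09 for Tubb2a, -2.32 for Eci3, -2.26 for Nckap5, -2.19 for Ddc, -2.16 for Slc30a10, -2.06 for Lgalsl, -1.80 for Insig2, -1.80 for Asap2, -1.62 for Tars, -1.61 for Ypel2, -1.44 for Leap2, -1.25 for Avpr1a, -1.17 for Tuba4a, -1.07 for Hal, -1.01 for Dhx58 and -0.83 for Stat5b. Eci3, Tomm40l and Dhx58 were called in neither product contrast alone. The differences without UVR include ZnO-UVR replicates 1 and 2, with Ciart at 9.04 and 8.53, against 4.87 to 5.64 in the other livers of ZnO-UVR. No setting left out both, so whether the size of the interactions rests on these livers was not tested.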

How the results depend on the processing

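Against 70 transcripts called between TiO2 + UVR and ZnO + UVR, 236 were called with array weights, 188 with the array slope as a covariate, 122 after quantile normalization and 111 among bright transcripts alone. Without the replicate block 46 were called, all among the 70, and the interaction count was 45 in place of 69. In the 5 same-numbered pairs of TiO2 + UVR and ZnO + UVR, the correlation of deviations from group means ran from -0.066 to 0.357. Over livers of different groups in the whole series, its mean was 0.153 for the same number and -0.028 for other numbers. These data thus do not show for every pair that a number marks a shared batch. The number stayed in the fit because the study's methods describe batches with each group in every batch. Among the deposited arrays, ZnO + UVR has 5 and none with number 6. Leaving out single arrays gave 38 to 127 calls, and 111 without Organic-UVR replicate 1. The interaction was called for 188 transcripts with array weights, 204 with the slope and 125 after quantile normalization, and for 39 to 102 when single arrays were left out, most of these alternatives chosen after seeing the data. Between TiO2-UVR and ZnO-UVR, array weights and the slope each gave 1 call in place of 0. The cause of these shifts was not tested. Of 30 named called genes, 20 kept the call in every alternative and 10 lost it in at least 1. No called named gene reversed its direction, while some list medians near 0 changed sign. The split of calls moved with the slope to 106 higher and 82 lower, against 21 higher and 49 lower without it.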
